A study of Mus musculus with 98 samples.

Results

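Long 5' overhangs are broken DNA ends on which the strand that ends 5' at the break reaches at least 10 nt further out than the strand that ends 3'. They were taken from deposited tables of end structures at breaks made by the RAG recombinase in mouse pre-B cells, at Jκ1 (Jk1), a joining segment of the immunoglobulin kappa locus, and at a recombination substrate. Each end structure is 1 pairing of a position, where the 5'-ending strand stops, with a signed overhang. Members were chosen by these 2 values alone: an overhang of -10 or lower and a position minus overhang of 22 or more. Distances are given here from position 2, the lowest position of either strand at these breaks, so the 3'-ending strand of every member stopped 20 nt or more inside. By this rule 372 of the 2039 end structures listed at Jk1 were members, and 377 of the 2454 listed at the substrate, 749 of 4493 in all.

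RAG cuts beside antigen receptor gene segments during V(D)J recombination and leaves coding ends closed as hairpins and blunt signal ends. DNA ligase IV seals both kinds by non-homologous end joining, so ends made in cells without it persist unjoined. H2AX is the histone variant that is phosphorylated around breaks, and 53BP1 is a chromatin-bound protein that binds near them; both are known for limiting the resection of broken ends. Resection in its usual form removes the 5'-ending strand and leaves a 3' overhang, so a long 5' overhang is the opposite shape, with loss on the 3'-ending strand.

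All cells were Abelson-kinase-transformed pre-B lines arrested in G1 and lacking ligase IV. The double mutants were Lig4-/- H2AX-/- lines 5 and 8, read at both sites, and Lig4-/- 53BP1-/- line B at both sites and line C at the substrate. Lig4-/- lines A and B, read at both sites, carry no further mutation. Ends were captured by HCoDES, in which a single-strand ligase closes each broken end into a hairpin that is treated with bisulfite, amplified and sequenced as read pairs. The labels do not say whether lines of 1 genotype came from different mice, and the tables do not say whether an end is a coding or a signal end.

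Each table pooled 3 libraries of a line and held 72923 to 337917 reads. The line was therefore the replicate, the spread between libraries could not be measured, and 95% Clopper-Pearson intervals cover counting error only, since reads amplified by PCR with no molecular identifier cannot be taken as separate molecules. Sequencing run 4 held both Lig4-/- lines, 53BP1 line B and H2AX line 5, while H2AX line 8 was in run 2 and 53BP1 line C in run 6. Titles give 48 h for the Lig4-/- lines, 53BP1 line B and H2AX line 8 and no time for the other 2 lines. The titles of Lig4-/- line B and 53BP1 line C carry a tag, shNT, that the labels do not explain. For 53BP1 line C at the substrate, 1 library has a title that also names H2AX line 5 and was sequenced mixed with another PCR.

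At Jk1 the long 5' overhangs were more frequent in every double mutant line than in either Lig4-/- line. They made up 9.60% of all reads (95% interval 9.47 to 9.75) in H2AX line 5 and 12.1% (11.9 to 12.3) in H2AX line 8, against 1.71% (1.66 to 1.75) in line A of the Lig4-/- cells and 3.94% (3.87 to 4.01) in line B. The means were 10.8% ± 1.76 in the H2AX mutants and 2.82% ± 1.58 in the Lig4-/- lines (SD, n = 2 each), a ratio of 3.84. The lowest H2AX line was 2.44 times the highest Lig4-/- line, and the difference of means, 8.02 percentage points, exceeded the 2.48 points between the H2AX lines. In 53BP1 line B they made up 24.3% of reads (24.2 to 24.5), 8.61 times the Lig4-/- mean, with no replicate line at this site. The smallest p that an exact two-sided permutation test over lines can give here is 0.333, for either mutant, and both comparisons reached it without being able to pass any usual threshold.

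At the substrate the excess was large in the 53BP1 mutants and small in the H2AX mutants. The share of all reads was 21.86% (21.72 to 22.0001) in 53BP1 line B and 25.91% (25.67 to 26.15) in line C, against 0.805% (0.775 to 0.836) in line A of the Lig4-/- cells and 2.77% (2.68 to 2.86) in line B. The 53BP1 mean of 23.9% ± 2.86 was 13.4 times the Lig4-/- mean of 1.79% ± 1.39 (SD, n = 2 each), and the closest pair of lines still differed 7.89-fold. The H2AX lines had 3.52% (3.39 to 3.65) and 7.49% (7.30 to 7.68), a mean of 5.50% ± 2.81 (SD, n = 2). Both lay above both Lig4-/- lines, but line 5 was 1.27 times Lig4-/- line B, and the difference of means, 3.71 points, was smaller than the 3.97 points between the H2AX lines. The exact permutation p was 0.333 for each mutant, the smallest possible. Within run 4 the H2AX difference was 1.73 points, from line 5 alone. The H2AX and 53BP1 comparisons share the Lig4-/- lines and are given side by side.

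**Figure D1:**
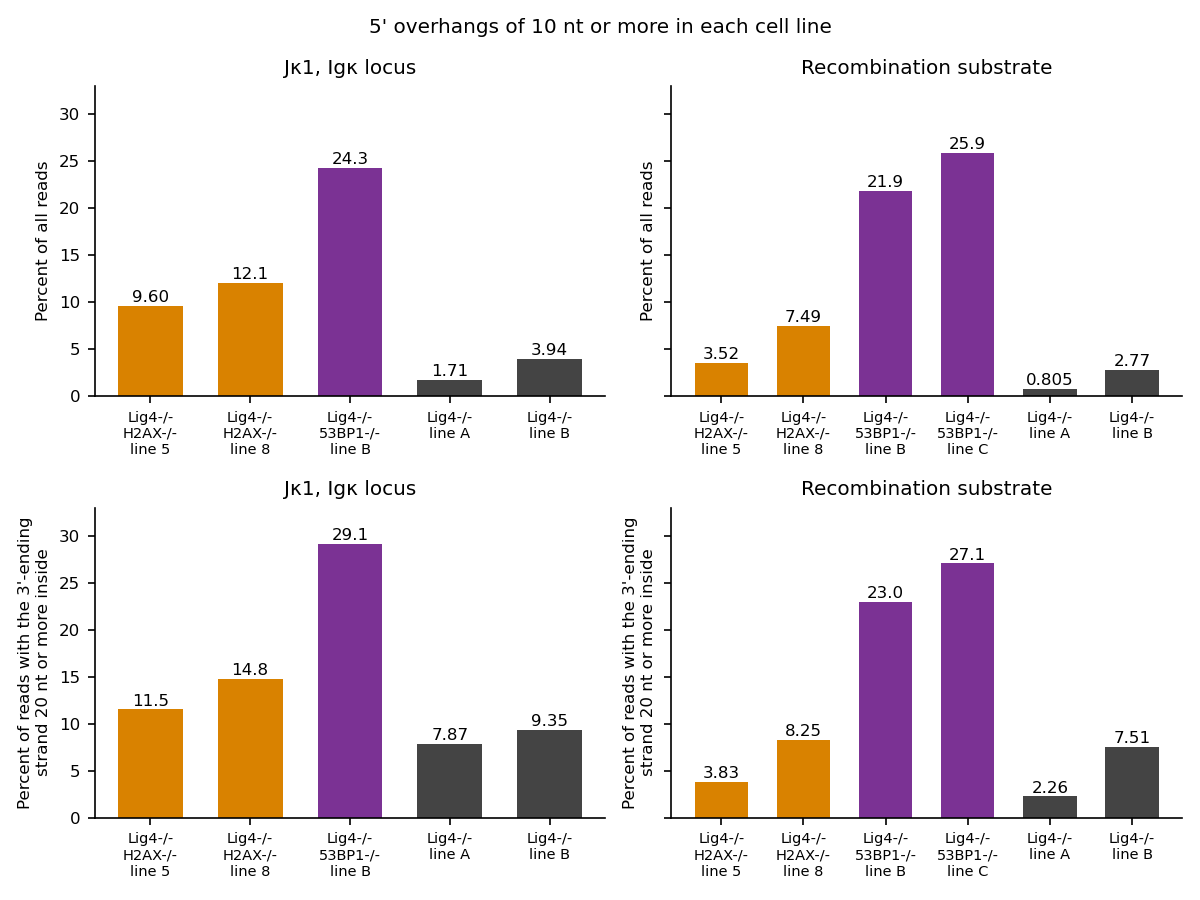
Percent of reads with a 5' overhang of 10 nt or more (vertical axes) in each cell line, 1 bar per line, at Jk1 (left) and the substrate (right); the upper panels use all reads, the lower panels reads with the 3'-ending strand 20 nt or more inside. The 53BP1 bars stand at 21.9% to 29.1% in all panels, and in the lower right panel the H2AX bars, 3.83% and 8.25%, overlap the Lig4-/- bars, 2.26% and 7.51%.

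Ends with the 3'-ending strand 20 nt or more inside, of any overhang, were themselves more frequent in the double mutants. At Jk1 they were 83.4% and 81.7% of reads in H2AX lines 5 and 8 and 83.5% in 53BP1 line B, against 21.7% and 42.1% in Lig4-/- cells, lines A and B. At the substrate they were 91.9% and 90.8% in the H2AX lines and 95.2% and 95.8% in 53BP1 lines B and C, against 35.6% and 36.9% in the Lig4-/- lines. The long 5' overhangs were therefore also taken as a share of these far ends.

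Per far end, the 53BP1 lines kept an excess at both sites and the H2AX lines did not at the substrate. At Jk1, 29.1% of far ends in 53BP1 line B had a long 5' overhang, against 7.87% in line A of the Lig4-/- cells and 9.35% in line B, 3.38 times their mean. At the substrate the share was 22.96% and 27.06% in 53BP1 lines B and C, against 2.26% and 7.51% in Lig4-/- cells, lines A and B, 5.12 times their mean and 3.06 times at the closest pair. The H2AX lines had 11.5% and 14.8% at Jk1, both above the Lig4-/- lines, with a ratio of means of 1.53 and a difference of 4.55 points against 3.28 points between the H2AX lines. At the substrate they had 3.83% and 8.25%, which overlapped the Lig4-/- lines, and the difference of 1.15 points was smaller than the 5.25 points between Lig4-/- lines A and B. The exact permutation p was 0.667 for H2AX at the substrate and 0.333, the smallest possible, for the other 3 comparisons. The H2AX value at the substrate turned negative without line 8, which is also the value within run 4 (-1.06 points), and without Lig4-/- line A (-1.47 points), and it was 3.78 points without Lig4-/- line B. At Jk1 the H2AX difference was 2.91 points within run 4, that is without line 8, and 1.70 points where the 3'-ending strand stopped 80 nt or more inside.

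The other overhang classes of far ends did not follow the same pattern in every case. Long 3' overhangs, 10 nt or more, were 16.87% and 10.002% of far ends in the H2AX lines at Jk1 and 16.4% in 53BP1 line B, against 8.06% and 7.51% in Lig4-/- cells, lines A and B. At the substrate they were 24.4% and 11.8% in the H2AX lines and 18.3% and 20.4% in the 53BP1 lines, against 19.7% and 11.3% in the Lig4-/- lines, so that the genotypes overlapped. Among far overhangs of 10 nt or more on either side, 5' overhangs made up 64.0% in 53BP1 line B at Jk1, against 49.4% and 55.5% in the Lig4-/- lines, and 55.7% and 57.1% in 53BP1 lines B and C at the substrate, against 10.3% and 39.9%. The H2AX lines had 40.6% and 59.7% at Jk1 and 13.6% and 41.0% at the substrate and overlapped the Lig4-/- lines at both. Short 5' overhangs of 1 to 9 nt were 46.5% and 47.1% of far ends in the H2AX lines at Jk1 and 42.1% in 53BP1 line B, against 37.8% and 31.6% in Lig4-/- cells, lines A and B. At the substrate 53BP1 line B had 38.4% and line C 13.8%, the highest and the lowest of the 6 lines there, although both had a high share of long ones.

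**Figure D2:**
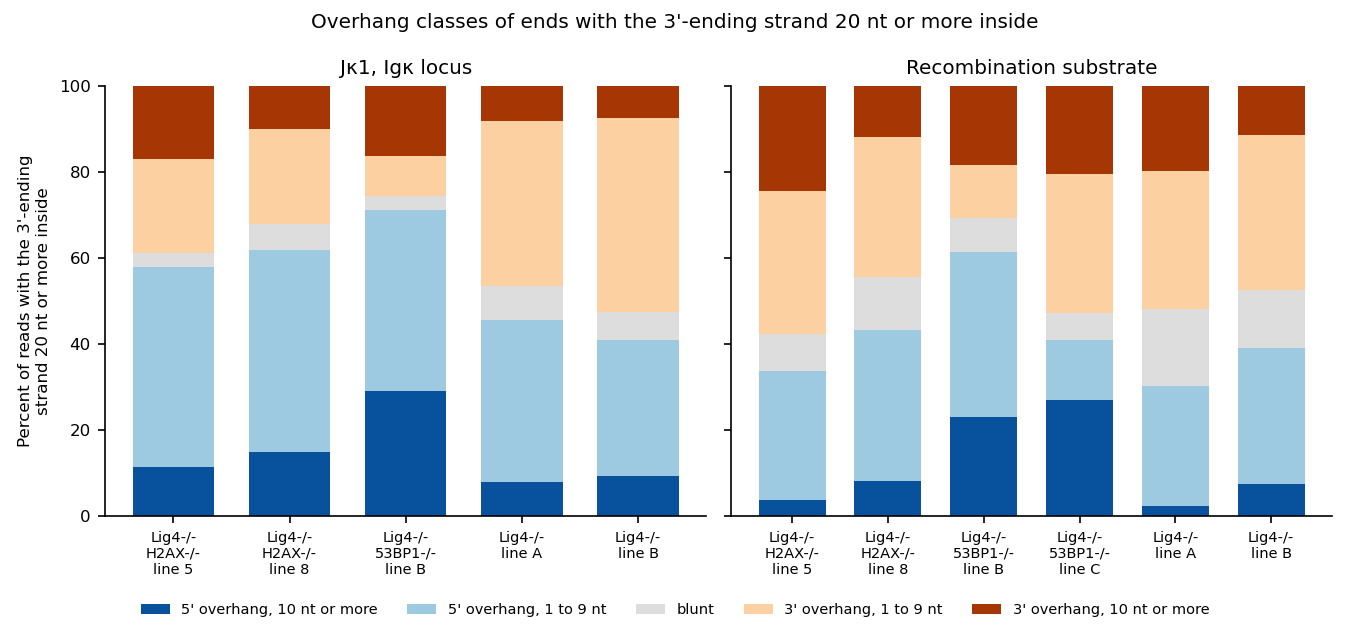
Stacked bars of the overhang classes of far ends (vertical axis, percent of reads with the 3'-ending strand 20 nt or more inside), 1 bar per line, at Jk1 (left) and the substrate (right). The lowest segment, long 5' overhangs, reaches 22.96% to 29.12% in the 53BP1 lines, against 2.26% to 9.35% in the Lig4-/- lines.

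Around the threshold on length, overhangs of 10 or 11 nt held 1.16% and 2.83% of reads in H2AX lines 5 and 8 at Jk1 and 4.19% in 53BP1 line B, against 0.516% and 0.407% in Lig4-/- cells, lines A and B. Overhangs of 8 or 9 nt, just outside, held 1.46%, 3.31% and 6.40%, against 0.105% and 0.768%, in the same lines. At the substrate the lengths just inside held 1.15% and 0.506% in the H2AX lines and 4.11% and 7.26% in the 53BP1 lines, against 0.348% and 0.0226% in the Lig4-/- lines, and those just outside 1.45%, 1.80%, 8.67% and 0.537%, against 1.19% and 1.34%. The lengths just outside held more reads than those just inside in 9 of the 11 tables, the exceptions being 53BP1 line C and, at Jk1, line A of the Lig4-/- cells. Around the threshold on position there was little: 3'-ending strands 20 or 21 nt inside held at most 0.0849% of reads in any line, in 53BP1 line B at Jk1, and those 18 or 19 nt inside at most 0.0527%, in 53BP1 line B at the substrate. All 5' overhangs of 10 nt or more that stopped nearer than 20 nt came to 1.23% and 1.77% of reads in Lig4-/- cells, lines A and B at the substrate and to 0.197% or less in the other 9 tables.

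Most overhangs in the class were 10 to 30 nt long, and their lengths did not separate the genotypes at Jk1. The read-weighted median length at Jk1 was 24 nt in H2AX line 5, 15 nt in H2AX line 8 and 18 nt in 53BP1 line B, against 15 nt and 17 nt in Lig4-/- cells, lines A and B. At the substrate it was 18 nt and 21 nt in the H2AX lines and 18 nt and 22 nt in 53BP1 lines B and C, against 12 nt and 16 nt in the Lig4-/- lines. The substrate medians of the double mutants all lay above the Lig4-/- ones, but those Lig4-/- medians rested on few structures and the differences changed sign without the most abundant member of each table. In 53BP1 line B the reads spread over all lengths at both sites, with 8.32% of all reads in overhangs of 10 to 14 nt at Jk1, 5.01% in 15 to 19 nt, 6.04% in 20 to 29 nt and 4.95% in 30 nt or more. Line C at the substrate had 7.53% in 10 to 14 nt, 0.0613% in 15 to 19 nt, 11.9% in 20 to 29 nt and 6.43% in 30 nt or more, a profile with a gap. As a share of far ends, overhangs of 20 nt or more came to 13.2% in 53BP1 line B at Jk1 and to 7.83% and 4.35% in the H2AX lines, against 2.60% and 4.21% in the Lig4-/- lines.

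**Figure D3:**
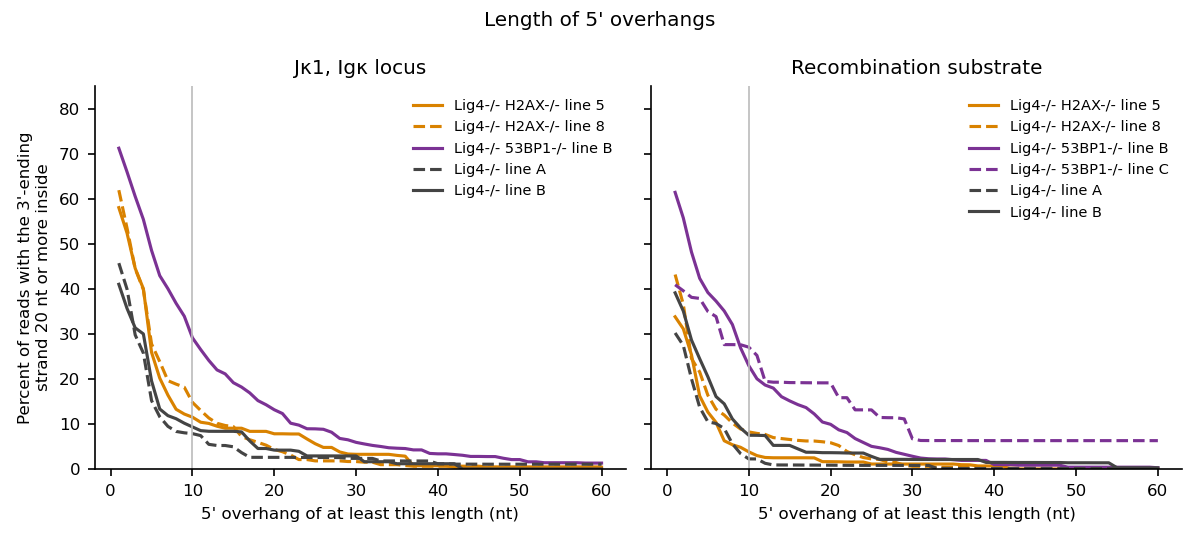
Percent of far ends (vertical axis) whose 5' overhang was at least the length on the horizontal axis, in nt, 1 curve per line, at Jk1 (left) and the substrate (right); the grey line marks 10 nt. The curve of 53BP1 line B falls smoothly, with 29.1% at 10 nt and 13.2% at 20 nt at Jk1, while that of 53BP1 line C runs in steps.

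Very long overhangs held a small part of the reads in most lines. Members of 60 nt or more held 3.70% and 2.94% of long 5' overhang reads in H2AX lines 5 and 8 at Jk1 and 4.56% in 53BP1 line B, against 13.7% and 0.167% in Lig4-/- cells, lines A and B. At the substrate they held 23.3% in 53BP1 line C, nearly all from 2 structures of 63 nt, 141 to 204 nt inside with 4959 reads and 82 to 145 nt inside with 2626 reads, and 4.58% or less in the other 5 lines. Of the members of 30 nt or more at Jk1, 10 of 16 and 3 of 11 had under 10 reads in the H2AX lines and 33 of 72 in 53BP1 line B, against 41 of 55 and 14 of 17 in the Lig4-/- lines. At the substrate these counts were 4 of 9 and 5 of 9 in the H2AX lines and 12 of 26 and 26 of 32 in the 53BP1 lines, against 23 of 25 and 24 of 28.

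The 3'-ending strand of these ends had been lost over long distances. Its read-weighted median stop at Jk1 lay 154 nt and 148 nt inside in H2AX lines 5 and 8 and 148 nt in 53BP1 line B, against 153 nt and 154 nt in Lig4-/- cells, lines A and B, which is nearly the same place in all 5 lines. The stretch 140 to 159 nt inside held 37.5% and 61.8% of the member reads in the H2AX lines and 43.2% in 53BP1 line B, against 44.3% and 62.8% in the Lig4-/- lines. At the substrate the lines differed: the median stop was 114 nt and 177 nt inside in H2AX lines 5 and 8 and 161 nt and 163 nt in 53BP1 lines B and C, against 88 nt and 148 nt in Lig4-/- cells, lines A and B. Other far ends stopped nearer in the Lig4-/- lines, where 32.9% and 24.1% of them at Jk1 had a 3'-ending strand 20 to 39 nt inside, against 12.7% and 3.90% in the H2AX lines and 4.23% in 53BP1 line B. Within the stretch 140 to 159 nt inside at Jk1, long 5' overhangs made up 24.4% and 26.4% of far ends in the H2AX lines and 33.9% in 53BP1 line B, against 23.1% and 19.2% in the Lig4-/- lines, a narrower gap than over all far ends. In the stretch 120 to 139 nt inside the values were 5.77% and 4.91% in the H2AX lines and 21.4% in 53BP1 line B, against 4.78% and 2.79%.

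**Figure D4:**
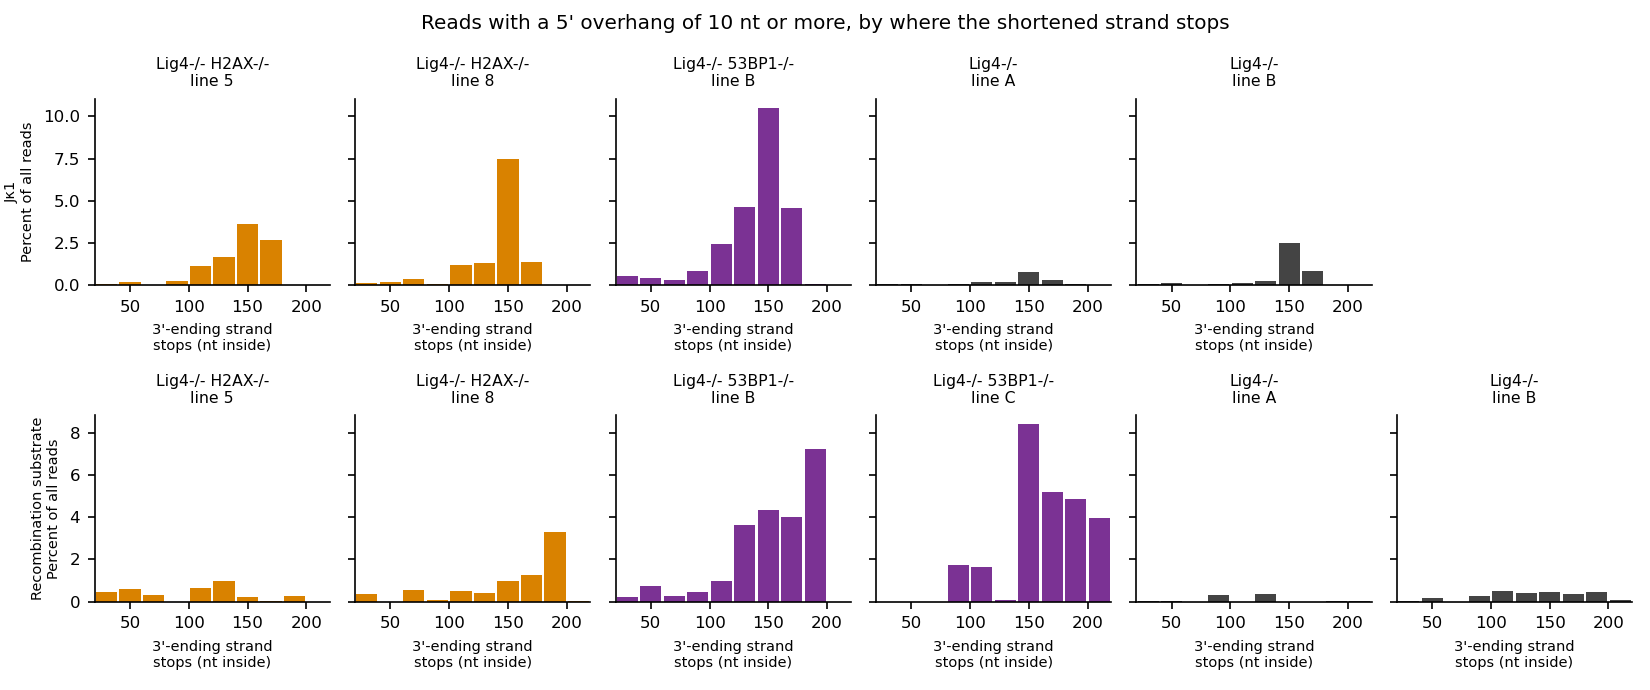
Percent of all reads with a 5' overhang of 10 nt or more (vertical axis) by where the 3'-ending strand stopped, in bins of 20 nt from 20 nt inside (horizontal axis), 1 panel per line, Jk1 above and the substrate below. At Jk1 the bin from 140 nt is the highest in all 5 panels, while at the substrate the highest bin differs between lines.

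The deepest 3' stops belonged to long 5' overhangs in all 11 tables. Among structures with 10 reads or more at Jk1, the deepest 3' stop of any structure outside the class was 157 nt inside in each double mutant line, against 155 nt and 158 nt in Lig4-/- cells, lines A and B. Long 5' overhangs reached 172 nt and 166 nt in the H2AX lines and 185 nt in 53BP1 line B, against 190 nt and 162 nt in the Lig4-/- lines. Stops deeper than those of the other structures held 27.9% and 11.5% of member reads in the H2AX lines and 21.5% in 53BP1 line B, against 34.1% and 21.5% in the Lig4-/- lines. At the substrate the deepest stop outside the class was 179 to 183 nt inside in all 6 lines, and that of long 5' overhangs was 190 nt in H2AX line 5 and 205 nt or 208 nt in the other lines. The 5'-ending strands of other structures went as deep as 179 nt at Jk1 and 206 nt at the substrate. Members thus had deeper 3' stops than structures outside the class, but the deeper 3' stops came with shallower 5' stops. Examples at Jk1 ran from 145 to 166, from 136 to 172 and from 113 to 189 nt. At the substrate examples ran from 171 to 188, from 165 to 193 and from 141 to 204 nt. Whether the 2 stops of an end share a joint limit was not tested. Among members with 10 reads or more, the 5'-ending strand stopped at most 150 nt inside at Jk1 and 171 nt at the substrate. Part of the depth of the members' 3' stops follows from the definition, since at a given place of the 5'-ending strand a long 5' overhang has the deeper 3' stop. Under a joint limit on the 2 stops, the deepest 3' stops would belong to long 5' overhangs in every table. The ranking of depths therefore describes the tables and supports nothing further.

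Several members often shared a 3' stop and differed in where the 5'-ending strand stopped. The stop 154 nt inside at Jk1 was held by 6 and 7 members in H2AX lines 5 and 8 and by 12 in 53BP1 line B, against 7 and 7 in Lig4-/- cells, lines A and B. It carried 25.6% and 22.2% of member reads in the H2AX lines and 11.01% in 53BP1 line B, against 0.855% and 17.98% in the Lig4-/- lines. Among the other far ends this stop held 1.11% or less of reads in each of the 5 lines. It lies close to the deepest 3' stops of other structures, 155 to 158 nt inside. A low share there therefore cannot tell whether the stop is particular to long 5' overhangs. The stop 186 nt inside at the substrate was likewise held by 2 and 7 members in the H2AX lines and by 11 and 6 in the 53BP1 lines, against 6 and 4 in the Lig4-/- lines, and carried 34.0% of member reads in H2AX line 8 and 10.04% in 53BP1 line B, against 1.86% or less in the other 4 lines.

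Most members were listed in 1 line, as were most structures of any kind. At Jk1, 271 of the 372 members were listed in 1 table, or 72.8% beside 56.3% of all structures, 73 in 2, 17 in 3, 10 in 4 and 1 in all 5, and at the substrate 270 of the 377 were listed in 1 of the 6 tables, or 71.6% beside 59.7% of all structures, and 1 in all 6. With 10 reads or more in each table, 35 members at Jk1 and 26 at the substrate were seen in at least 2 tables, which is 13.9% and 13.4% of those that had 10 reads in any table, beside 33.4% and 33.8% over all structures. Members listed in no other line held 47.3% and 40.5% of member reads in H2AX lines 5 and 8 at Jk1 and 46.7% in 53BP1 line B, against 34.2% and 15.8% in Lig4-/- cells, lines A and B. Members listed in 3 tables or more held 35.7% and 32.6% in the H2AX lines and 16.2% in 53BP1 line B, against 41.9% and 49.4% in the Lig4-/- lines. The shares of members listed in no other line ran, at the substrate, from 2.93% in Lig4-/- line A to 78.4% in H2AX line 5, and those of members listed in 3 tables or more from 8.53% in H2AX line 5 to 39.0% in 53BP1 line B.

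The member reads were spread over many structures in 53BP1 line B and over few in the Lig4-/- lines. At Jk1 it listed 242 members, of which the 10 most abundant held 23.7% of member reads. H2AX lines 5 and 8 listed 67 and 69 members with 65.4% and 46.0% in the first 10, against 80 and 55 members with 82.6% and 94.8% in Lig4-/- cells, lines A and B. At the substrate 53BP1 line B listed 193 members with 35.3% in the first 10 and line C 106 with 96.9%. The H2AX lines there listed 39 and 65 with 90.0% and 54.6%, against 81 and 64 with 92.4% and 90.7% in the Lig4-/- lines. The high share of 53BP1 line C thus came from a few structures and that of line B from many. At the substrate, Lig4-/- line A held few such reads, and its first 3 members made up 82.5% of the 2661.

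Counting each listed structure once removes the weight of reads. Members were then 9.78% and 11.5% of the structures listed in H2AX lines 5 and 8 at Jk1 and 22.6% in 53BP1 line B, against 10.7% and 8.11% in Lig4-/- cells, lines A and B. At the substrate they were 6.63% and 9.29% in the H2AX lines and 19.2% and 20.2% in the 53BP1 lines, against 9.05% and 8.96% in the Lig4-/- lines. The 53BP1 lines thus stood apart by structures as by reads, 2.40 times the Lig4-/- mean at Jk1 and 2.18 times at the substrate, while the H2AX lines overlapped the Lig4-/- lines at both sites. The value of 53BP1 line C has a limit, since its structures are listed from 1 read and those of the other lines from 2. Of its 106 members 82 had under 10 reads, and structures were not counted once at an equal minimum.

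**Figure D5:**
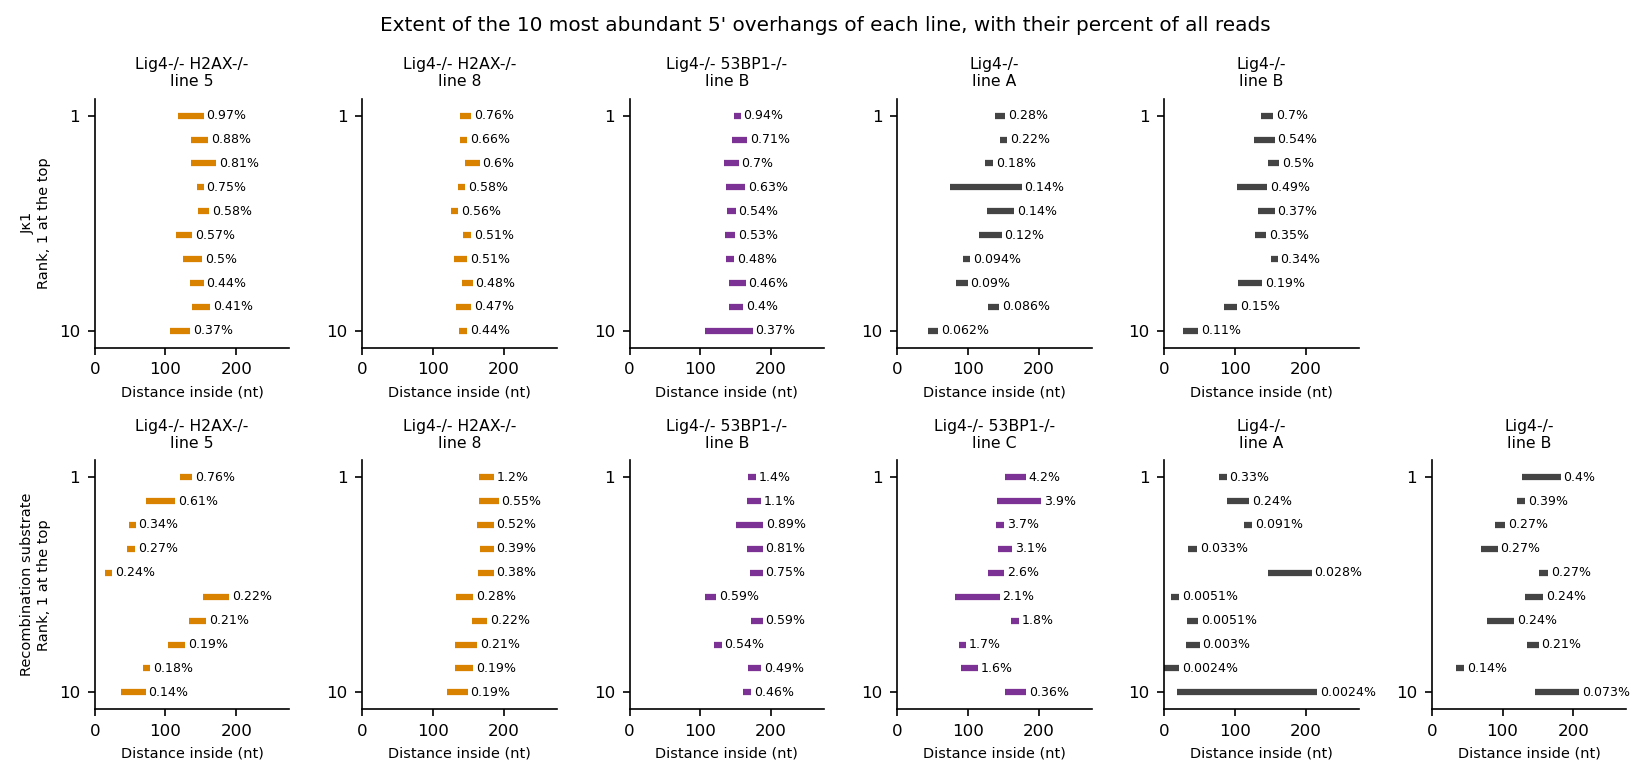
The 10 most abundant long 5' overhangs of each line, ranked down the vertical axis, drawn from where the 5'-ending strand stopped to where the 3'-ending strand stopped (horizontal axis, nt inside), with the percent of all reads beside each; Jk1 above, substrate below. At Jk1 most lie between 100 and 180 nt inside in all 5 lines, and at the substrate 53BP1 line C has single structures at 4.23%, 3.90% and 3.66%.

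By a rule on rank and on change that held in every pair of lines, 18 members at Jk1 and 16 at the substrate were singled out, and the leading ones follow, each given by its 5' stop and its 3' stop. A structure that is not listed had under 2 reads, or, in 53BP1 line C, none. The 1 member listed in all 5 lines at Jk1 ran from 125 to 136 nt, a length of 11 nt. It held 0.189% and 0.558% of reads in H2AX lines 5 and 8 and 0.117% in 53BP1 line B, against 0.177% and 0.0574% in Lig4-/- cells, lines A and B. This member was picked as a rise in the H2AX lines, so that contrast was set by the choice.

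Members ending at the stop 154 nt inside were among those higher in both H2AX lines at Jk1. The one from 142 to 154 nt, 12 nt long, held 0.293% and 0.513% in H2AX lines 5 and 8 and 0.323% in 53BP1 line B, against 2 reads in Lig4-/- line A and no listing in line B. The one from 135 to 154 nt, 19 nt long, held 0.443% and 0.244% in the H2AX lines and 0.266% in 53BP1 line B, against no listing in Lig4-/- line A and 3 reads in line B. Both were picked as large rises in the H2AX lines over the Lig4-/- lines, so their contrast between those lines was set by the choice. Their level in 53BP1 line B was not, and in both cases it lay between the H2AX lines.

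The most abundant members at Jk1 differed from line to line, and several were also abundant in a second line. In H2AX line 5 the most abundant ran from 118 to 154 nt with 0.967% of reads, which 53BP1 line B held at 0.253% and H2AX line 8 did not list. In H2AX line 8 it ran from 139 to 154 nt with 0.756%, which 53BP1 line B held at 0.273% and H2AX line 5 did not list. In 53BP1 line B it ran from 147 to 157 nt with 0.939%, against 3 reads in H2AX line 5 and no listing in H2AX line 8 or either Lig4-/- line. Next in 53BP1 line B came 145 to 166 nt with 0.706%, which H2AX line 8 held at 0.599% and neither Lig4-/- line listed. Both of these leaders of 53BP1 line B were also picked as rises there, so their contrast with the Lig4-/- lines was set by the choice. In the Lig4-/- lines the leaders were 138 to 153 nt with 0.279% in line A and 137 to 154 nt with 0.704% in line B. The first of these held 0.00271% in 53BP1 line B and the second 0.304%, and neither H2AX line listed them.

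Among members lower in a mutant than in both Lig4-/- lines at Jk1, the 3 largest falls for H2AX were at levels like those of the rises. They ran from 126 to 156, from 128 to 144 and from 138 to 153 nt and were listed in neither H2AX line. The higher Lig4-/- line held 0.540%, 0.347% and 0.279% of reads. The lower Lig4-/- line had 4 reads of the first, 0.0863% for the second and 3 reads of the last. All 3 were picked as falls, so their contrast between the H2AX and Lig4-/- lines was set by the choice. They were not lower in 53BP1 line B, which held 0.140%, 0.163% and 0.00271%, each between Lig4-/- lines A and B. For 53BP1 the 3 largest falls were structures of 0.00698% or less in any line.

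At the substrate the leading members were mostly abundant in a single line. In 53BP1 line C the 3 most abundant ran from 153 to 182 nt with 4.23% of reads, from 141 to 204 nt with 3.90% and from 140 to 151 nt with 3.66%. In 53BP1 line B the first of these held 0.00207%, the second was not listed and the last had 3 reads. In 53BP1 line B the most abundant ran from 168 to 178 nt with 1.45%, and line C did not list it. The member from 161 to 172 nt was high in both, with 0.459% in line B and 1.83% in line C, against 2 reads in Lig4-/- line A and no listing in Lig4-/- line B. It was picked as a rise in the 53BP1 lines, so this contrast was set by the choice.

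For H2AX at the substrate, the most abundant member of line 5 ran from 120 to 138 nt with 0.756% of reads and that of line 8 from 165 to 186 nt with 1.18%, and neither was listed in the other H2AX line. The member from 133 to 157 nt was present in both, at 0.214% and 0.281%, and in 53BP1 line B at 0.267%, against no listing in either Lig4-/- line. 53BP1 line C did not list it. It was picked as a rise in the H2AX lines, so its contrast between those and the Lig4-/- lines was set by the choice. Of the members that were lower in every H2AX line and every 53BP1 line, 77 to 88 nt held 0.334% in Lig4-/- line A and 2 reads in line B, and 88 to 120 nt held 0.239% in line A and 2 reads in line B. None of the double mutant lines listed either of them. The member from 34 to 46 nt, lower in the same lines, was abundant in both Lig4-/- lines, with 0.0333% in line A and 0.142% in line B. It had 3 reads in H2AX line 5 and 7 in 53BP1 line B.

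Structure by structure, few members were higher in every mutant line where a genotype had 2 lines. Of the 218 members listed in the H2AX comparison at Jk1, 113 had 10 reads or more over the 4 tables and 7 of these were higher in both H2AX lines than in both Lig4-/- lines, or 6.19%, beside 7.09% of all 1157 structures so tested. Another 7 were lower, beside 18.6% of all structures. For 53BP1 line B at Jk1, 298 members were listed, 200 passed and 161 were higher, or 80.5%, beside 48.8% of all 1201 structures, while 2 were lower, beside 22.7%; with 1 mutant line this count demands less. At the substrate 188 members were listed for H2AX, 80 passed and 8 were higher, beside 8.09% of all 1149 structures, while 7 were lower, beside 24.8%. For 53BP1 there 328 were listed, 159 passed and 16 were higher, or 10.1%, beside 5.39% of all 1113 structures, while 8 were lower, beside 30.3%. A member that passed the read minimum through 1 group was bound to be high there, so these counts describe the tables and support nothing further. The same holds for the median differences in share, which were taken over the same tested structures. The median difference in share was 0.0415 points over the members and 0.00797 over all structures for H2AX at Jk1, and 0.0847 and 0.000211 for 53BP1. At the substrate it was 0.0391 and 0.00917 for H2AX and 0.0317 and -0.00257 for 53BP1.

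The background of the method was read from genomic DNA cut with KpnI, an enzyme that leaves a 4-nt 3' overhang. There 5' overhangs of 10 nt or more, at any position, held 580 of 307425 reads, or 0.189% (0.174 to 0.205), in 26 of 144 structures. The same quantity, without the condition on position, was 9.61% and 12.2% in H2AX lines 5 and 8 at Jk1 and 24.3% in 53BP1 line B, and 1.80% and 3.97% in Lig4-/- cells, lines A and B. At the substrate it was 3.67% and 7.69% in the H2AX lines, 21.9% and 26.0% in the 53BP1 lines, and 2.04% and 4.54% in the Lig4-/- lines. All 11 RAG tables thus lay above the KpnI table, the lowest of them Lig4-/- line A at Jk1.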

How the data were processed

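The deposited tables list, for each end structure, a position, an overhang and a raw read count; counts were not normalised by the authors as far as the values show. Per the labels' protocols, genomic DNA was treated with single-strand ligase and bisulfite, amplified and sequenced on a MiSeq. No source used here names the aligner, the filters or the genome build, and no coordinates are printed. The sign of the overhang was settled on the KpnI end, a known 3' overhang whose main structure has the value 4. Position minus overhang then gives the stop of the 3'-ending strand. Of 17 tables, 11 are of RAG breaks at the sites compared. Another 2 tables repeated values already used and were left out. All but 2 tables list structures from 2 reads.

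Shares were computed per line with pandas 2.3.3 under Python 3.11.15 and given 95% Clopper-Pearson intervals from scipy 1.17.1. Figures were drawn with matplotlib 3.10.9. Lines were compared with exact two-sided permutation tests of the difference of means. Counts of single structures used those with 10 reads or more over the tables compared. Named members were, per site, the 3 with the highest mean share in each genotype, the most abundant of each table, and in each comparison the 3 largest rises and falls on the same side in every pair of lines. The share calculation and the structure counts were tested on simulated reads. Members, lists and tests were chosen with earlier results of these data known. Alternatives changed the length, position and read minimums, counted each structure once, and left out the most abundant member, each line, lines of other runs and lines tagged shNT.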

Additional observations from a re-analysis of the deposited data

Results flagged for a closer look

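Tables outside the comparisons held 5' overhangs of 10 nt or more above the 0.189% of reads in the KpnI table. At breaks made by Cas9 they held 4.99% of reads in Lig4-/- line A and 1.27% in Lig4-/- line B. At breaks made by a zinc finger nuclease they held 5.05% in Lig4-/- 53BP1-/- line C and 0.672% in Lig4-/- line B, with 1 line per genotype and no test. In the table labelled for de novo breaks at the substrate, Lig4-/- H2AX-/- line 8 held 11.3%. No condition on position was set for these tables, and each share is of 1 line.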

How the results depend on the processing

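The limits are those of few lines: 2 per genotype, or 1 for 53BP1 at Jk1, so no comparison could reach an exact p under 0.333, and libraries could not be separated. No paired analysis was possible because each table pools its 3 libraries and the numbers of libraries are not kept in it. Without a condition on position the share of far ends has no value of its own and was not computed. For 53BP1, all differences in share kept their direction and the separation of the lines under every alternative, with 9.83 to 34.7 percentage points at Jk1 and 10.7 to 29.7 at the substrate for the share of all reads, and 9.76 to 31.1 and 8.49 to 22.7 for the share of far ends. At Jk1, leaving out Lig4-/- line A, Lig4-/- line B or lines tagged shNT left 1 line on each side, where separation could not fail. The last 2 of these are the same setting there, and a minimum of 2 reads changed nothing at Jk1. For H2AX, counting each structure once gave 1.22 points at Jk1 and -1.05 at the substrate for the share of all reads, and -0.587 and -4.58 for the share of far ends, lines overlapping in the first 3. For H2AX at the substrate, the share of all reads overlapped with no condition on position (2.39) and with the 3'-ending strand 80 nt or more inside (2.69). Its share of far ends was -0.975 for overhangs of 5 nt or more, -0.553 for 8 nt, -0.770 and -3.08 for stops 40 and 80 nt or more inside, -1.06 within sequencing run 4, 3.78 without lines tagged shNT and -1.47 to 3.78 when 1 line was left out. The 5' share of far overhangs of 10 nt or more on either side, -2.31 points for H2AX at Jk1, was 0.321 without the most abundant members, 0.730 without lines tagged shNT and -11.9 to 7.24 when 1 line was left out. At the substrate it was 2.23 points, and -5.18 with structures counted once, -11.5 within run 4 and -12.5 to 17.0 when 1 line was left out. The cause of these changes was not tested.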
